A study of Mus musculus with 2 samples.

Results

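The genes described here are 9 through which endothelial cells start, restrain and dissolve blood clots, namely F3, Tfpi, Thbd, Procr, Vwf, Plat, Plau, F2r and F2rl3. They were taken by gene symbol from the 22206 gene probe sets of the array, where each is paired with 1 probe set. F2 cells, a mouse vascular endothelial line derived from a UV-induced tumour of mixed BALB/c and C57BL/6 background, were transfected with a plasmid for hBACCS2, a fusion of a plant light sensor and STIM1 that opens the Ca2+ channel ORAI1 under blue light. One culture received light of 470 nm at 0.4 mW/mm2, 2 min on and 18 min off over 4 h, and the other received none. The comparison was meant to address how Ca2+ entry changes transcripts. No array holds lit cells without hBACCS2, so effects of light alone cannot be told apart from those of Ca2+ entry. RNA of each was hybridized to 1 Clariom S mouse array, so no difference below has a replicate and no p-value is given. The label of the culture without light and the paper describe it as transfected with hBACCS2, while the series design text says that the control lacked it. Only part of the cells take up the plasmid, so each signal averages cells with and without it, and fewer expressing cells cannot be told apart from less RNA per cell.

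Clotting on a vessel wall starts when tissue factor, the product of F3, binds factor VII, and the Tfpi product blocks that complex. Thrombin, the protease formed at the end of the cascade, makes fibrin and cuts receptors on platelets and endothelium, among them PAR1 (F2r) and PAR4 (F2rl3). Thrombomodulin (Thbd) captures thrombin and, with the endothelial protein C receptor (Procr), turns it toward activation of the anticoagulant protein C. Von Willebrand factor (Vwf) tethers platelets, and tissue-type and urokinase-type plasminogen activators (Plat and Plau) form plasmin, which dissolves fibrin. Resting endothelium is known for the anticoagulant side of this balance.

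The upstream sequences of the thrombin receptor genes F2r and F2rl3 are given first. Those of F3, whose difference lay between theirs, and of Procr, whose signal was nearly equal on both arrays, follow. Each sequence is the 250 bases before the annotated start in RefSeq (build GRCm38.p6), read 5′ to 3′ on the gene's strand. Capitals mark the letters CACCC, known as a KLF site, GGAAA, the core that NFAT binds, and TGACTCA, the AP-1 site, each on either strand.
F2r, chr13:95618467-95618716, minus strand: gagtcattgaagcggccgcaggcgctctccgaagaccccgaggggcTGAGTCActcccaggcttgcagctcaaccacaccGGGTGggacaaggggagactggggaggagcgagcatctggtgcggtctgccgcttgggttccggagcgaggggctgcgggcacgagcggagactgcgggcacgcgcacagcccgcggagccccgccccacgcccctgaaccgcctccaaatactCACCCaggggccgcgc
F2rl3, chr8:72761409-72761658, plus strand: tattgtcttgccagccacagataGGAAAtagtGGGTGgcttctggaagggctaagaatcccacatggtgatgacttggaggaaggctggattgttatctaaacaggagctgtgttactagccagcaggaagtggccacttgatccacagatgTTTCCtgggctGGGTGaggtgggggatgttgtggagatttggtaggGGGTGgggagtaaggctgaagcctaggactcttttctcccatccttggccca
F3, chr3:121723287-121723536, plus strand: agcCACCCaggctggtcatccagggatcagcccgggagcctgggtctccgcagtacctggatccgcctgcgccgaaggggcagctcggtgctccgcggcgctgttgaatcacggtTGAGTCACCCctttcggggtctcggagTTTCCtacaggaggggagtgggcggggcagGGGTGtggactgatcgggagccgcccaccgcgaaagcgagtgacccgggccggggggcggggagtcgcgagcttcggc
Procr, chr2:155750967-155751216, plus strand: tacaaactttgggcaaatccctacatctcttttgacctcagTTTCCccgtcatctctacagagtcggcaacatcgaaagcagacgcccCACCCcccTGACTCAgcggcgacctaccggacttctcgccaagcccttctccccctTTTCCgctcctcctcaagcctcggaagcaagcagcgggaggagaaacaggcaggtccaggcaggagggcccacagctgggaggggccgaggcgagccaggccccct
The 2 thrombin receptor genes have unlike upstream sequences. That of F2r is 70.8% G and C with 24 CpG pairs, and that of F2rl3 is 52.0% G and C with 0 CpG pairs, while the median over all 32851 windows of this length is 52.4% with 6 pairs. The F3 window, at 70.0% and 24 pairs, is like that of F2r in this respect. Windows were at hand for 5 of the 9 genes, the fifth being Tfpi with 2 start sites. The AP-1 letters occur once each in the windows of F2r, F3 and Procr and in neither Tfpi window nor that of F2rl3, and 4.46% of all windows hold them. In F3 the AP-1 letters run into a CACCC match and share bases with it. CACCC is in each of the 6 windows of these genes and in 52.0% of all windows. The NFAT core is in all but that of F2r and in 55.6% of all windows. The letters GGGCGG of the Sp1 site occur 3 times for F3, 1 time for F2r and 1 time in each Tfpi window, at neither F2rl3 nor Procr, and in 32.7% of all windows. Such matches describe the letters and are not shown to be bound.

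Of the 9 genes, 1 was lower with blue light past the study's cutoff and 0 were higher. The cutoff is a ratio of light over no light above 2 or under 0.5, here with a signal over 24 on both arrays. All 9 probe sets had such signals, but 24 lies under the negative control medians, 26.2 without and 26.5 with blue light. Passing it thus does not by itself show expression. Over all 11695 probe sets with a signal over 24 on both arrays, 1.37% were lower and 0.958% higher. One gene in 9 is a larger share than 1.37%, but it is a single gene on 1 pair of arrays. The median log2 difference of the 9 was -0.02, against -0.01 over all probe sets with these signals, and 4 differences were above 0 and 5 below. The range ran from -1.18 for F2rl3 to 0.57 for Vwf. Since no replicate array shows the spread, each difference is set beside 500 neighbours, the probe sets closest to it in mean signal, and the range from their 5th to 95th percentile is called the window here. It describes how far these 2 arrays differ at like signal. By construction the lowest 5% and the highest 5% of the neighbours lie outside the window. F2rl3 lay outside its window and the other 8 lay inside theirs, a share near that of the neighbours.

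**Figure D1:**
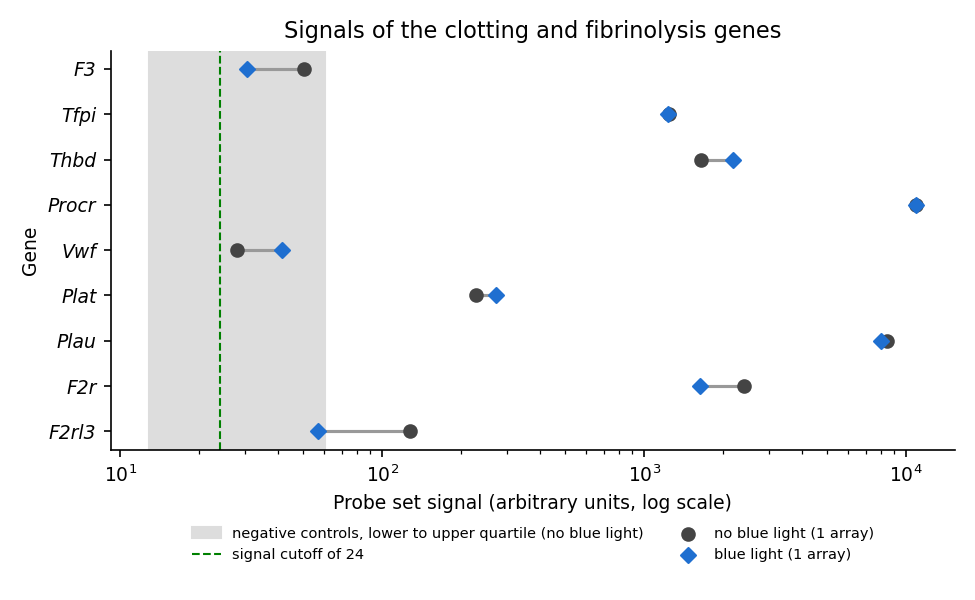
Signal of each of the 9 genes on the array without blue light (dark circles) and with it (blue diamonds), on a log axis in arbitrary units; the grey band spans the lower to upper quartile of the negative controls without blue light and the green line is the cutoff of 24. F3 and Vwf lie inside the band on both arrays and F2rl3 enters it with blue light, while the points of Tfpi and Procr nearly coincide.

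The thrombin receptors were the lowest pair by role. F2rl3, which encodes PAR4, a receptor that mouse platelets use to sense thrombin, gave a signal of 128 in the unlit culture and 56.7 in the lit one, which is a ratio of 0.442. Its log2 difference of -1.18 lay below a window of -0.80 to 0.73. The signal with light was within the lower and upper quartile of the negative control probes on that array, 12.9 and 61.4, so that its true size is uncertain. The unlit signal was above 88.0% of the negative controls but under their 95th percentile of 333. With 24 added to both signals, which damps ratios of dim probe sets, the log2 difference was -0.92 and no longer past the cutoff.

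F2r encodes PAR1, the main thrombin receptor of endothelium, and was measured far above the controls. The unlit culture gave a signal of 2414 and the lit one 1631, higher than those of at least 98.3% of the negative controls. The ratio was 0.676 and the log2 difference of -0.57 was just inside a window of -0.62 to 0.60. F2rl2, outside the 9, encodes PAR3, which in mouse assists PAR4 on platelets, and had signals of 3952 and 2441. Its log2 difference was -0.69, with a window of -0.66 to 0.60. All 3 thrombin-cut receptors measured here were thus lower on the array with blue light, 1 of them past the cutoff. Over all probe sets with a signal over 24, 51.1% had a difference below 0. The receptor gene F2rl1 is not named in the annotation used.

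Signals of the G proteins and exchange factors that carry thrombin receptor signals into the cell did not all lie to one side. Of 7 measured genes in the list of receptors and their G proteins, which holds F2rl2, 0 were past the cutoff and the median log2 difference was -0.27. Arhgef12, a guanine nucleotide exchange factor gene, went from 1074 to 644, a log2 difference of -0.74 against a window of -0.71 to 0.57. Gna12 and Gnaq, which encode G protein alpha subunits, had differences of -0.31 and -0.27. Gna13 and Gna11 were above 0, at 0.17 and 0.03.

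F3, the gene of tissue factor, was dim. It was measured at 50.1 without light and at 30.4 under light, above 70.5% and 54.9% of the negative controls. The ratio was 0.607, and the log2 difference of -0.72 was inside its window of -0.83 to 0.84. With 24 added to both signals it was -0.45. At a 1.5-fold cutoff, which 8.47% of all probe sets passed as lower, F3 joins F2rl3, and 0 of the 9 were higher, against 7.55% of all probe sets.

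Tfpi, the inhibitor of the tissue factor complex, had nearly equal signals of 1244 and 1227. Its log2 difference was -0.02 and took either sign under other scalings, from -0.06 to 0.03. Neither gene of this opposed pair was past the cutoff.

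Neither receptor of the protein C pathway was past the cutoff. Procr had signals of 10914 and 10944 and a log2 difference of 0.00, between -0.04 and 0.05 under other scalings. Thbd went from 1653 to 2186, a ratio of 1.32. Its log2 difference of 0.40 was inside a window of -0.62 to 0.60, and lay between 0.36 and 0.45 under other scalings.

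Protein S (Pros1), a cofactor of activated protein C and of the Tfpi product, is outside the 9 and was the 1 gene of the wider list past the cutoff. Its signal went from 121 to 255, a ratio of 2.11 and a log2 difference of 1.08, above a window of -0.83 to 0.72. It was no longer past the cutoff with 24 added to both signals, and its signal is under the 95th percentile of the negative controls on both arrays. Among the 5 anticoagulant genes that passed the signal cutoff, 4 had differences above 0, as did 48.5% of all probe sets with such signals, and the median of the 5 was 0.39. The exception was Proz, the gene of protein Z, at -0.15 with dim signals of 38.1 and 34.4. The others included Anxa5, which shields membrane phospholipid from clotting factors, from 10851 to 13444, and Hs3st1, an enzyme of anticoagulant heparan sulfate, from 29.5 to 38.8. Proc, the gene of protein C itself, had signals of 24.4 and 36.0, and Hs3st1 and Proc are both as dim as the negative controls.

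Vwf was at the level of the negative controls on both arrays. It was measured at 27.8 without light and at 41.3 under light, above 52.0% and 65.1% of them. The log2 difference of 0.57, the highest of the 9, was inside its window of -0.67 to 0.84 and was 0.33 with 24 added to both signals. Of 12 other measured endothelial markers, 11 were over 24 on both arrays, with Cldn5 the exception at 4.50 and 5.03. Their differences ran from -0.87 for Flt1 to 0.24 for Emcn, with a median of -0.23, 4 above 0 and 7 below. The summed marker signal was 510000 without and 429000 with blue light. Most of it came from Cdh5, at 284467 and 231925, and Kdr, at 90957 and 57981. The part of these marker differences in the differences of the 9 genes was not tested.

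Neither plasminogen activator was past the cutoff. Plau, the urokinase gene, had signals of 8450 and 8027, a ratio of 0.950 and a log2 difference of -0.07. Plat, the tissue-type activator gene, had signals of 227 and 271, a log2 difference of 0.26 within a window of -0.74 to 0.68. The Plat signals were above 93.1% and 94.2% of the negative controls, under their 95th percentile on both arrays. Plaur, the receptor that holds urokinase on the cell, went from 1062 to 1240, a difference of 0.22. The annexin gene Anxa2, whose product binds plasminogen and Plat protein with its partner S100a10, had a difference of 0.32 and S100a10 one of -0.21. Serpinf2, a plasmin inhibitor made by liver, had dim signals of 34.2 and 25.5. The matrix gene Thbs1, whose product binds plasminogen and plasmin, had the lowest difference of the fibrinolysis list at -0.66, below a window of -0.55 to 0.42. None of its 7 genes that passed the signal cutoff was past the cutoff.

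**Figure D2:**
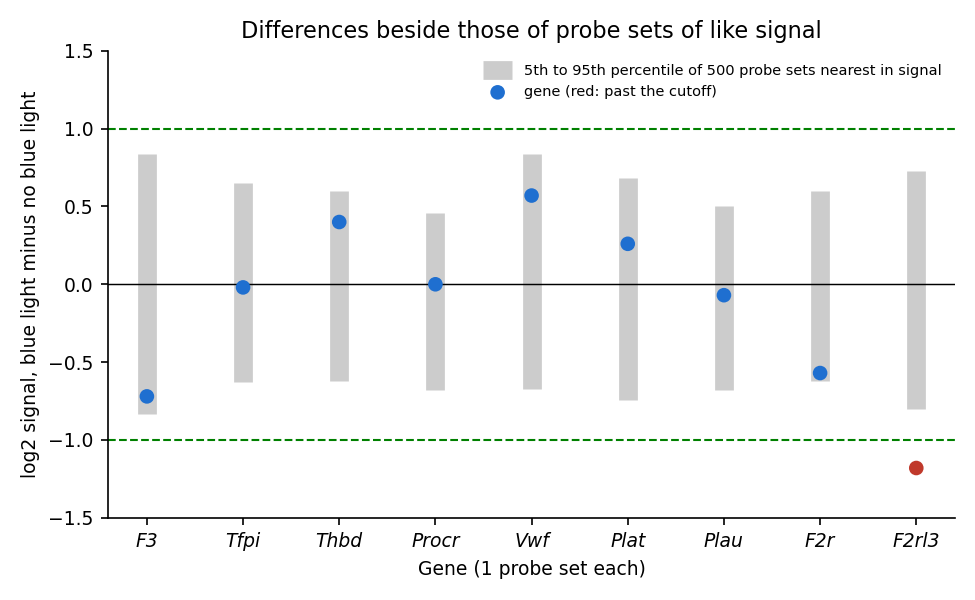
Log2 signal with blue light minus without it for each of the 9 genes (points, 1 probe set each), with grey bars for the 5th to 95th percentile of the differences of the 500 probe sets nearest in mean signal and green lines at the fold cutoff. F2rl3, in red at -1.18, is below its bar and below the cutoff, and the other 8 points lie on their bars.

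Plasma clotting factors, most of which are made by the liver, largely did not pass the signal cutoff on both arrays. Of all 22206 gene probe sets, 11695 were over it on both arrays. Of 19 measured genes of clotting factors and their processing, 13 were not over 24 on both arrays. Among them were the genes of prothrombin (F2), factor VII (F7), factor X (F10) and the fibrinogen chains. Of these 13, F2, F11 and the fibrinogen chain gene Fga were over 24 with blue light only, at 35.5, 25.1 and 26.6. F8, the gene of factor VIII, which endothelial cells make, was over the cutoff on both, with signals of 443 and 239. The F8 signals were above 96.1% and 93.6% of the negative controls, so the lit one was under their 95th percentile. The F8 ratio was 0.540 and the log2 difference of -0.89 lay below a window of -0.72 to 0.64. Of the processing genes, Vkorc1, which recycles the vitamin K used to finish clotting factors, was at -0.60 and the carboxylase gene Ggcx at -0.01. The cargo receptor genes Lman1 and Mcfd2, through which factor VIII leaves the endoplasmic reticulum, were at -0.02 and 0.36. P4hb, a protein disulfide isomerase, was at 0.61, just above a window of -0.66 to 0.59. All 6 were within the fold cutoff.

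Over all 66 further genes of clotting, fibrinolysis and their control that were measured, 36 had a signal over 24 on both arrays. Of these, 1 was higher past the cutoff (0.958% over all probe sets), and 0 were lower (1.37%), which leaves 35 inside the fold limits. The median log2 difference of the 36 was -0.05. The wider list was drawn up by role, and 7 of its 73 genes are not named in the annotation.

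**Figure D3:**
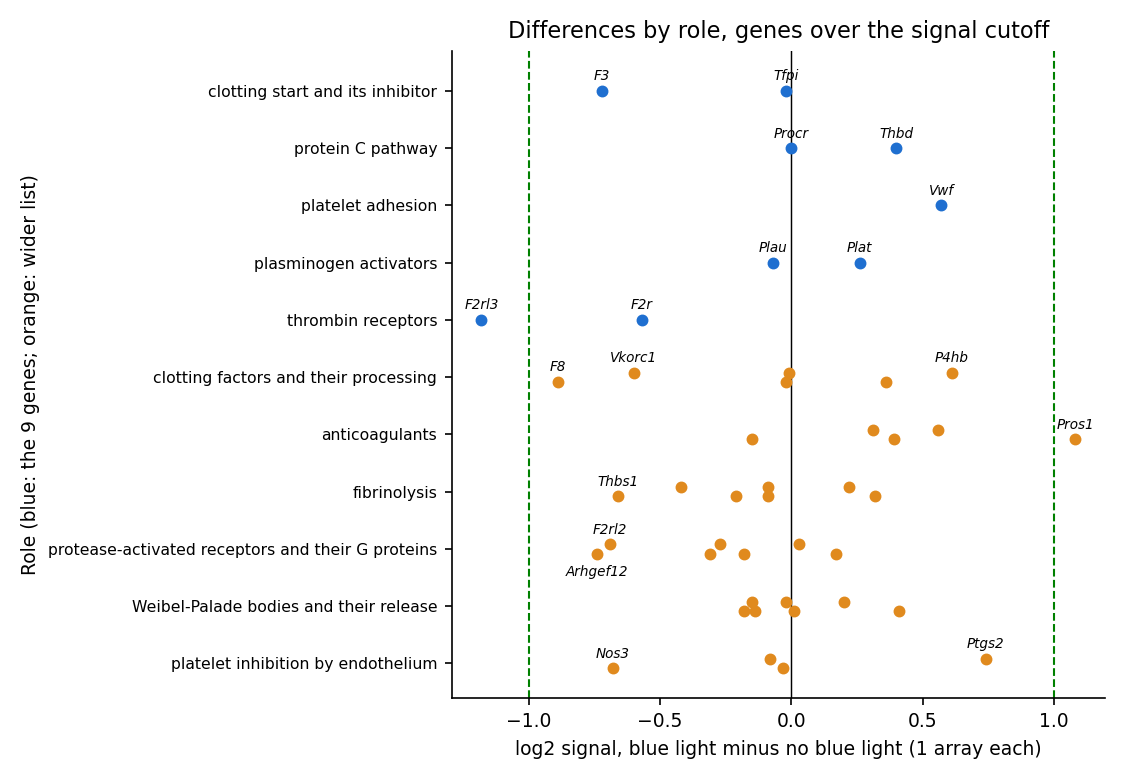
Log2 signal with blue light minus without it for the 9 genes (blue) and for the wider list (orange), by role, for those that passed the signal cutoff; green lines mark the fold cutoff. F2rl3 at -1.18 and Pros1 at 1.08 are the points outside the lines, and F2r, F2rl2 and F2rl3 all lie to the left of 0.

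Scaling between the arrays moved the 9 differences little. Under median, quantile or loess scaling F2rl3 stayed between -1.22 and -1.18, and F2r lay between -0.61 and -0.52. Adding 24 to both signals mattered for the dim genes, namely F2rl3, F3 and Vwf.

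**Figure D4:**
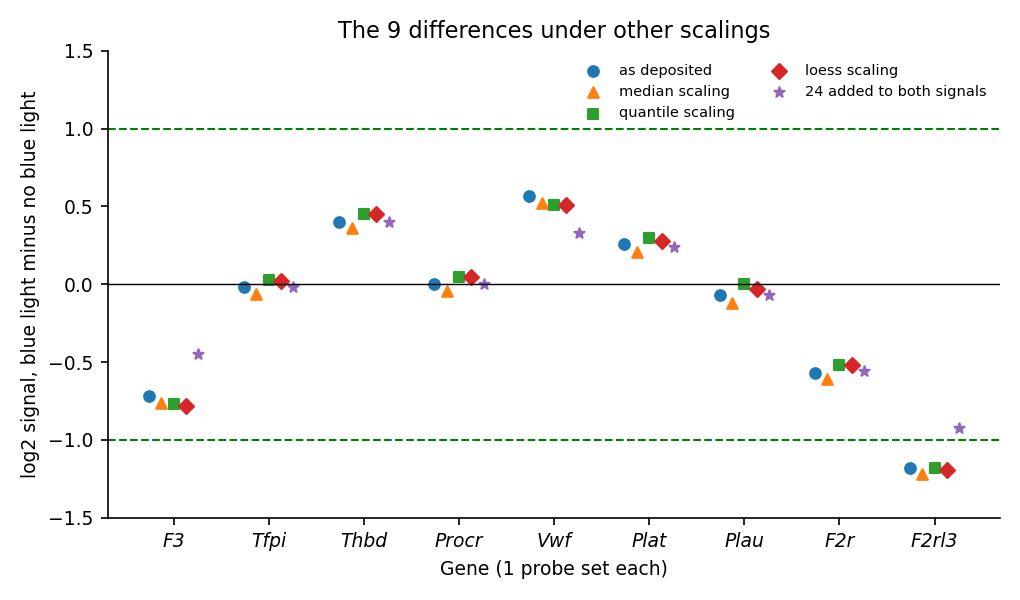
Log2 signal with blue light minus without it for the 9 genes, from the values as deposited, after each of the 3 scalings, and after adding 24 to the signals; green lines mark the fold cutoff. F2rl3 is past the lower line in all but the last, where it is at -0.92, and the points of Tfpi and Procr straddle 0.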

How the data were processed

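RNA of 2 cultures was hybridized to 1 Clariom S mouse array each. Normalization was done by the authors in the Microarray Data Analysis Tool, and the deposited values are log2 signals per probe set. The sources used here do not state how this tool normalizes, nor whether background was subtracted. The table holds 22206 gene probe sets and 6640 control rows, 5222 of them negative controls. Symbols came from the platform annotation, which names 19572 gene probe sets, each with 1 symbol, and leaves 2634 unnamed here. Of 127 symbols looked up, 12 were not found, nor were their Entrez IDs.

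Signals are 2 to the power of the deposited value, and differences are light minus no light. Signals of different probe sets were not ranked against each other. The members and lists were chosen with earlier results of these data known. All 9 members were named, and of the wider list those past the cutoff and up to 4 per role with the largest differences, while other genes were named after their values were seen. The number of arrays limits the precision, and no test between conditions was made. The fold calls, the window and the scalings were tested on simulated data, and the sequence steps were not. Changes were planted there only in probe sets of mean signal over 100. Planted changes were thus not tried at the signals of F3, Vwf and F2rl3. The loess span was 0.3. Analyses used Python 3.11.15, numpy 2.4.6, pandas 2.3.3 and statsmodels 0.14.6.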

Additional observations from a re-analysis of the deposited data

How the results depend on the processing

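Under median, quantile and loess scaling and with the mean per gene symbol, the counts of the 9 genes past the cutoff stayed at 1 lower and 0 higher, and those of the wider list at 1 higher and 0 lower. After adding 24 to each signal, 0 of the 9 were lower and 0 of the wider list higher. Over all probe sets 0.633% were then lower and 0.436% higher. Signals were next required over the 95th percentile of the negative controls, 333 without and 324 with blue light. This left 5 of the 9 genes, 0 of them lower, and 0 of the wider list were higher. Of all probe sets left, 0.814% were lower and 0.492% higher. With signals over 100 on both arrays 0 of 6 of the 9 genes were lower, against 0.987% of all probe sets. The wider list there kept 1 gene higher and 0 lower, where 0.662% of all probe sets were higher. In these 2 settings F2rl3 is no longer among the genes counted. At a 1.5-fold cutoff 2 of the 9 were lower, and of the 36 genes of the wider list 3 were higher and 6 lower, where 7.55% of all probe sets were higher and 8.47% lower. With no signal cutoff 2 of 66 genes of the wider list were higher and 1 lower, where 1.83% and 1.75% of all probe sets were, the added ones being the clotting factor genes F12 and F13a1, both under 24 on both arrays. The median of the 9 lay between -0.06 and 0.03 and that of the wider list between -0.10 and -0.02. No paired analysis was possible because each condition has 1 array. Differences of dim probe sets are limited by signals at the level of the negative controls, and no replicate array bears on any value.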

Other observations

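Endothelial cells store Von Willebrand factor in Weibel-Palade bodies, which fuse with the membrane when Ca2+ rises. Genes of other granule cargo were measured both well above and under the signal cutoff. Selp, which encodes P-selectin, had signals of 15131 and 17419, Angpt2, a vessel growth regulator, 7747 and 7776, and Cd63, a granule membrane protein gene, 27220 and 26931, log2 differences of 0.20, 0.01 and -0.02. Igfbp7 at 21.3 and 17.7 and Mmrn1 at 16.9 and 12.8 were under the cutoff on both arrays. Of the release genes, Rab27a, a GTPase of these granules, had a log2 difference of 0.41, and Snap23 and Vamp3, of the fusion machinery, had differences of -0.18 and -0.15. Of 7 genes of this list with a signal over 24 on both arrays, 0 were past the cutoff and their median was -0.02. The other 8 measured genes were not over 24 on both arrays.

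Endothelium also holds platelets back with nitric oxide, prostacyclin and the breakdown of ADP. Entpd1, the CD39 enzyme that removes ATP and ADP, had signals of 21537 and 21159, a log2 difference of -0.03. Nos3, the endothelial nitric oxide synthase gene, was at -0.68, below a window of -0.66 to 0.50. Ptgs2, an enzyme of prostaglandin synthesis, was at 0.74, inside a window of -0.78 to 0.79. Its signals of 54.0 and 90.5 were above 72.3% and 82.8% of the negative controls. Ptgis, the prostacyclin synthase gene, was dim at 26.4 and 24.9. None of the 4 was past the cutoff.

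Most markers of other cell types did not pass the signal cutoff on both arrays, while 11695 of all 22206 gene probe sets did. Of the platelet and megakaryocyte list 2 of 5 measured genes were over 24 on both arrays, Itga2b at 141 and 118 and Pf4 at 25.9 and 38.9. For smooth muscle and pericytes this was 2 of 7, for hepatocytes 1 of 7, for fibroblasts 1 of 4, for macrophages and leukocytes 1 of 4 and for epithelium 0 of 4.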
